A study of Rattus norvegicus with 32 samples.

Results

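The genes described here are the parts of the DNA replication machinery and of nucleotide synthesis, apart from the MCM helicase. A list of 50 gene names was looked up among the 26583 gene names of the array, and 45 were found, on 50 probes. Orc1, Orc2, Orc5, Orc6 and Cdc45 were not matched under those names, but Orc1l and Cdc45l carry the probes for transcripts that RefSeq now calls Orc1 and Cdc45. Rfc1 had 3 probes, and Rrm2, Slbp and Tipin had 2 each, and the probes of a gene were averaged. The members were chosen by name and role, with earlier results of these data known.

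C6 is a rat glioma cell line, grown here to confluence in medium with serum. Angiotensin II (Ang II) is a peptide hormone that binds the AT1 and AT2 receptors, Losartan (Los) blocks AT1, and PD123319 blocks AT2. Cells were left untreated (Control), given 100 nM Ang II, or given Ang II after 30 min with 10 µM Losartan (Ang II+Los) or 10 µM PD123319 (Ang II+PD123319), and RNA was taken at 3 h and at 6 h. Each of the 8 groups had 4 replicates, and each of the 32 samples was hybridized to its own one-colour array. No group received an antagonist without Ang II. The 4 samples of one replicate number and time shared a slide, in the same order of groups, so that position on the slide and treatment cannot be told apart. The labels do not say that replicates were separate cultures, and the p-values measure the spread between these samples.

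A cell copies its genome once in a division cycle. The origin recognition complex marks origins in G1, Cdc6 and Cdt1 load the MCM helicase there, and geminin (Gmnn) binds Cdt1 to prevent a second loading. At the G1/S transition the Cdc7-Dbf4 kinase, Cdc45 and the GINS complex turn the loaded helicase into a moving fork. Polymerase alpha with primase starts each strand, the clamp loader RFC places the PCNA clamp, polymerases delta and epsilon extend, RPA covers single-stranded DNA, and Fen1 and Lig1 join the lagging strand. Ribonucleotide reductase (Rrm1, Rrm2), thymidylate synthase (Tyms), thymidine kinase (Tk1) and dUTPase (Dut) supply deoxynucleotides and keep uracil out. Many of these genes are known targets of E2F factors and are transcribed most around the start of S phase.

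Because E2F factors are known to bind near the start sites of such genes, the promoters of the members were read from RefSeq (GRCr8) before turning to the signals. Of the 45 members found on the array, 40 had a promoter of 300 bases, from 250 before to 50 after the annotated start. The letters TTTCCCGC, TTTGGCGC, TTTCGCGC and TTTGGCGG were searched on both strands as E2F-type motifs, and 22 of the 40 (55.0%) held at least 1. Of all 33469 promoters of this length 2.18% held one, and of the 21851 promoters of protein-coding genes 2.87%. The GC box GGGCGG stood in 67.5% of the member promoters and 41.8% of the protein-coding ones, and CCAAT in 20 of the 40 member promoters and 38.0% of the protein-coding ones. The CHR letters TTTGAA, known from G2/M genes, stood in 17.5% of the member promoters and 17.1% of the protein-coding ones. Matches of different motifs may overlap, and a match describes the letters only. Below are the 100 bases before the start of 4 members that were higher in Ang II than in Control, with the E2F-type match in capitals (the reverse complement is capitalised where the match lies on the other strand).
Pola2, chr1:212680543-212680642, minus strand: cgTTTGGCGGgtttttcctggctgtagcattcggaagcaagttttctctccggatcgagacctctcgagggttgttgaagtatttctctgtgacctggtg
Chaf1a, chr9:961125-961224, plus strand: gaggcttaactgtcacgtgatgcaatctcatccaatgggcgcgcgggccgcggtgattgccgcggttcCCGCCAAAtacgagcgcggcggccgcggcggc
Gins3, chr19:9434680-9434779, minus strand: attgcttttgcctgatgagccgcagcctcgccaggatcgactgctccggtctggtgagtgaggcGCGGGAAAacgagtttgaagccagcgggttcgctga
Tyms, chr9:120776084-120776183, minus strand: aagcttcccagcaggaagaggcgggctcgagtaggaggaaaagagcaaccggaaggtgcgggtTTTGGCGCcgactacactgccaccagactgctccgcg
The match began 98 bases before the start in Pola2, 32 in Chaf1a, 36 in Gins3 and 37 in Tyms. Pole held TTTGGCGC on the other strand 2 bases before its start, and Pola1 the same letters 172 bases before. The windows of Pcna, Gins2, Rrm1 and Rfc5 held none of the 4 motifs, and those of Cdt1 and Cdc7 held theirs after the start. At 6 h, the median log2 fold change of Ang II x Control was 0.30 over the 21 tested members with a match and 0.29 over the other members with a promoter. A match near the start was therefore common among the members, and the fold changes of members with and without one lay close together.

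What the array read was a 60-base probe per gene or transcript, and 10 of the 50 probes were placed on rn4 across an intron, so that they match spliced RNA. The probes of 4 members that were higher in Ang II at 6 h are shown because they cross such a junction.
Gins2, rn4 chr19:50918540-50918875, minus strand: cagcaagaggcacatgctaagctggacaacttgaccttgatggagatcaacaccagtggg
Pole, rn4 chr12:46494396-46494586, minus strand: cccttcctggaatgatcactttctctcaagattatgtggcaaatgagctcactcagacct
Rpa1, rn4 chr10:62618471-62619284, minus strand: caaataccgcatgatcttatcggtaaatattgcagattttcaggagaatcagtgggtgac
Rrm1, rn4 chr1:159936096-159937814, plus strand: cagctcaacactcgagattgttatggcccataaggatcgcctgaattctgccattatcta
The probe of Tk1 had no position in the files, and those of Cdc45l, Chaf1a and Uhrf1 lay on unplaced sequence of that build.

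The share of spots well above background ranged from 55.9% to 64.7% over the 3 h arrays and from 64.2% to 79.8% over those of 6 h, by a stricter rule of the scanner software at 6 h. Of the glial markers looked up, S100b, Vim, Nes and Cd44 were well above background on all 32 arrays, Gfap on 2 and Slc1a3 on 0. Of the markers of other cell types on the array, 1 of 3 neuronal, 1 of 4 oligodendrocyte, 3 of 4 microglial and 1 of 4 endothelial genes were above background on all 32 arrays. Most members were bright enough to test. At 3 h, 41 of the 45 were tested, and Gins3, Cdc7, Pole2 and Dnmt1 were well above background on 3, 6, 12 and 0 of 16 arrays. At 6 h, 44 were tested, and Dnmt1, the maintenance DNA methyltransferase, was above background on 0 of 16 arrays. Dnmt1 was read by a single probe, so that a lack of its transcript is not shown.

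The level of the members differed more between slides than between treatments. For each array, the median was taken over the members of the log2 signal minus the gene's mean over the 16 arrays of that time. At 3 h, the 4 arrays of replicate 1 lay between 0.82 and 1.07, and the 4 arrays of replicate 3 between -1.13 and -0.99. Replicate 3 at 3 h thus held low levels of the replication genes in all 4 groups, Control included. At 6 h the Control arrays lay at 0.34, -0.84, 0.25 and -0.58 for replicates 1 to 4, and the Ang II arrays at 0.38, -0.22, 0.26 and 0.00. The Control arrays of replicates 2 and 4 were the lowest 2 of the 16, and every treated array on those slides was higher than its Control. The median SD of a member over the 4 Control samples at 6 h was 0.66, against 0.31 over the Ang II samples, while over all genes it was 0.31 and 0.25.

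**Figure D1:**
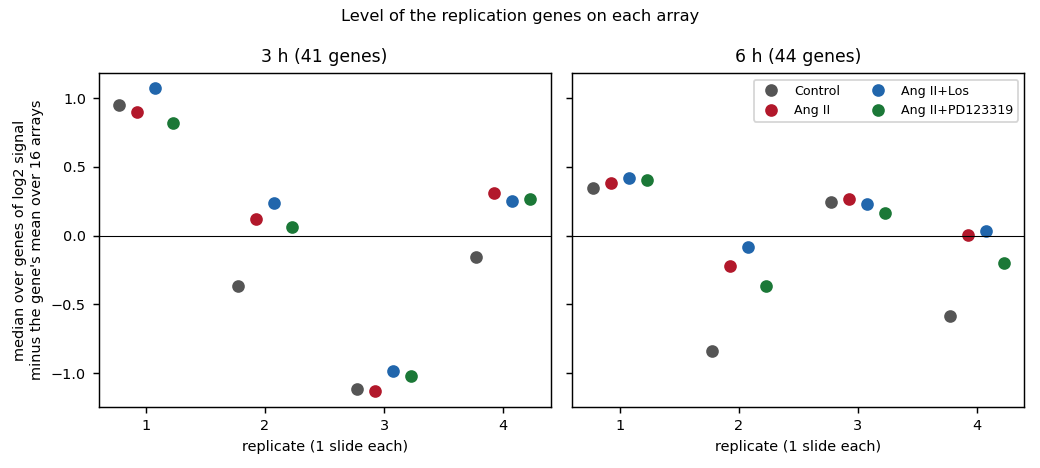
Median over the tested members of the log2 signal minus each gene's mean over the 16 arrays of a time, by replicate (horizontal axis, 1 slide each, different slides at the 2 times) and group (colour), with 41 genes at 3 h and 44 at 6 h. All 4 arrays of replicate 3 lie near -1 at 3 h, and the Control arrays of replicates 2 and 4 lie below the treated arrays of the same slides at both times.

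The first question was whether Ang II changed the members relative to Control. At 3 h, 10 of 41 members were higher in Ang II and 0 lower, by limma, with limits of an unadjusted p under 0.05 and of a fold above 1.2 or below 0.8. Of all 13630 genes tested at 3 h, 5.03% were called higher and 5.88% lower by the same limits. At 6 h, 19 of 44 members were higher and 0 lower, against 6.61% of all 16448 genes called higher and 4.79% lower. Without the slide as a block the number of members called was 0 at 3 h and 2 at 6 h, and with the methods' paired t-test 2 and 3. Of the genes called at 3 h, 53.9% were lower in Ang II, and 83.7% with arrays scaled to the 75th percentile, which called 6 members, all higher. The median log2 fold change of the members was 0.28 at 3 h and 0.29 at 6 h, while that of all genes was 0.00 and -0.01. At 3 h 38 of 41 members lay above 0, and at 6 h 43 of 44, Pold2 being the exception with -0.09 ± 0.10 (SE). After Benjamini-Hochberg adjustment over all genes in limma, 0 members and 0 genes had an adjusted p under 0.05 at either time, and the lowest adjusted p of a member was 0.324 at 3 h and 0.108 at 6 h. At an unadjusted p under 0.05 there were 1723 genes at 3 h and 3538 at 6 h. For no member did the 4 Ang II samples lie wholly above the 4 Control samples. The share of all genes without overlap was not counted, so this is not read as particular to the members. The level of the members differed more between slides than between groups, and the test was made within slides. On all 4 slides 13 of 41 members were above 0 at 3 h and 16 of 44 at 6 h, against 11.6% and 11.9% of all genes. The 12 members given below by sample for Ang II x Control were chosen because they passed both limits with all 4 pairs in one direction. At the time used for that choice, 4 pairs above 0 is therefore not support.

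The differences were large in replicates 2 and 4 and near 0 in replicates 1 and 3, at 3 h and at 6 h, although the slides of the 2 times were different ones. Over the members, the median of Ang II minus Control was 0.01, 0.57, 0.09 and 0.43 in replicates 1 to 4 at 3 h. At 6 h it was 0.06, 0.65, 0.02 and 0.56. In replicate 4 at 3 h 41 of 41 members were above Control, and at 6 h 43 of 44 in replicate 2 and 43 of 44 in replicate 4, but 25 of 44 in replicate 1 and 24 of 44 in replicate 3. Without replicate 2, 4 members were called at 3 h and 6 at 6 h, and without replicate 4 the numbers were 4 and 5. Without replicate 1 they were 13 and 27, and without replicate 3 they were 12 and 25. Of all genes, 5.4% at 3 h and 8.4% at 6 h were called in either direction without replicate 2, and 5.6% and 7.4% without replicate 4. These shares were 12.7% and 13.1% without replicate 1, and 11.98% and 15.3% without replicate 3. The share of all genes was thus also lower without replicate 2 or replicate 4. The difference in array brightness was largest in replicate 2 at 3 h, but in replicate 3 at 6 h, where the median over the members was 0.02. The log2 75th percentile of the Ang II array was above that of its Control by 0.47, 0.97, 0.19 and 0.37 in replicates 1 to 4 at 3 h, and by -0.16, 0.10, 0.20 and 0.04 at 6 h, before normalization. The part of brightness in the result was not tested. Scan and slide overlap, since replicates 1 and 2 at 3 h belong to scan 1 and replicates 3 and 4 to scan 2. Within scan 1 the median over the members was 0.28 and within scan 2 0.31, and at 6 h it was 0.21 within scan 3 (replicates 1 to 3) and 0.56 in scan 4 (replicate 4 alone).

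**Figure D2:**
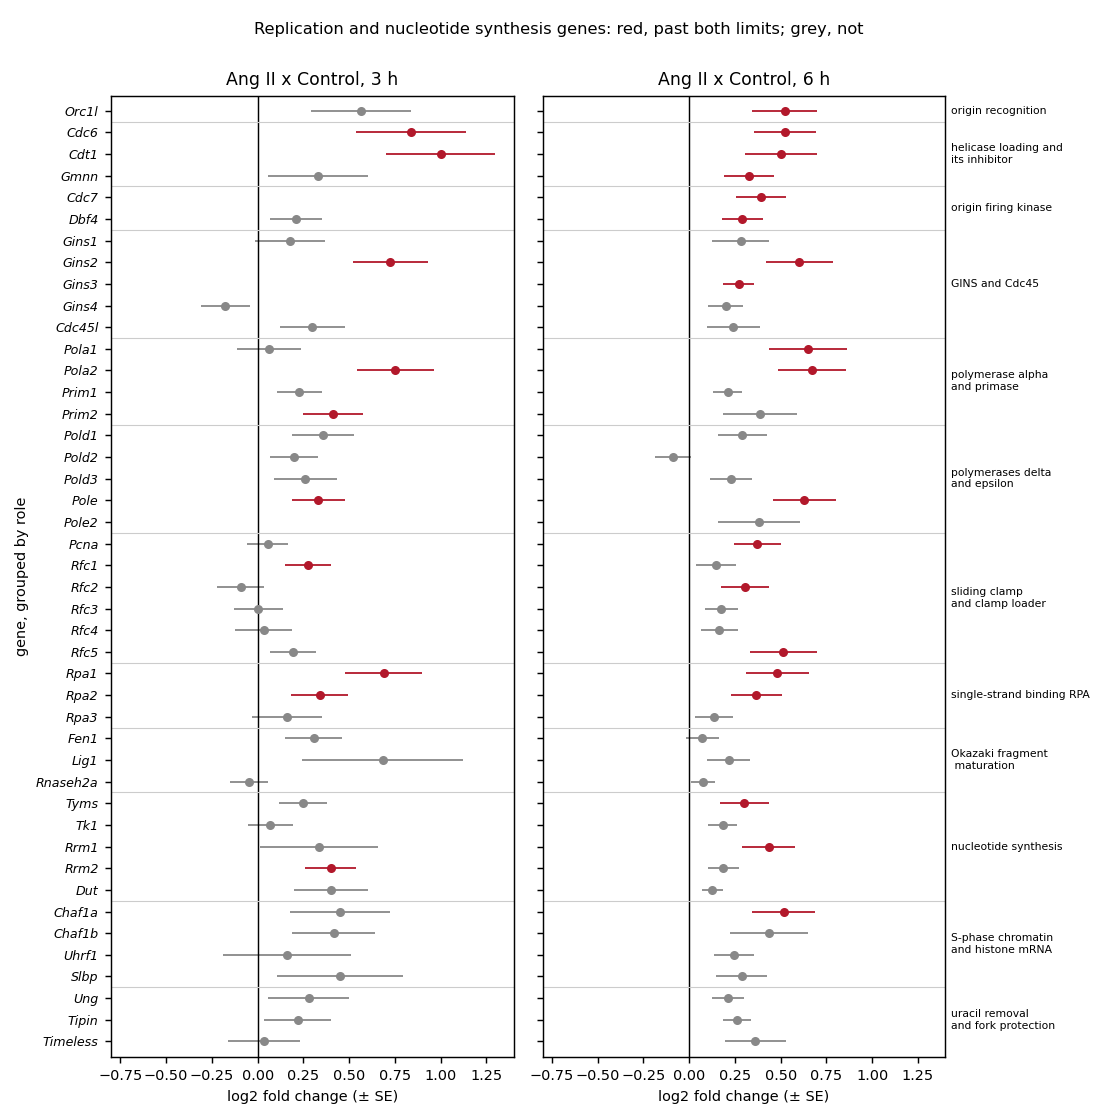
Log2 fold change of Ang II x Control with its standard error for each tested member, grouped by role, at 3 h (left) and 6 h (right). Red points passed both limits (10 at 3 h, 19 at 6 h), and nearly all points lie to the right of 0.

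Among the genes that prepare origins, Cdc6 and Cdt1, which load the helicase, were called higher at both times. Cdc6, the ATPase that brings the helicase to the origin, had log2 signals of 8.52, 6.38, 5.53 and 7.72 in the Control replicates 1 to 4 at 3 h and 8.66, 8.28, 5.84 and 8.72 in Ang II. Each Ang II sample was above the Control of its slide, by little in replicate 1 and by far the most in replicate 2. The log2 fold change was 0.84 ± 0.30 (SE, n = 4 pairs), with an adjusted p of 0.351 in limma. At 6 h Cdc6 had 9.02, 7.77, 9.26 and 8.11 in Control and 9.38, 8.76, 9.17 and 8.95 in Ang II, a log2 fold change of 0.52 ± 0.17, and replicate 3 went the other way. Cdt1, its partner in loading, had 6.08, 4.12, 3.57 and 4.89 in Control and 6.21, 6.51, 4.12 and 5.84 in Ang II at 3 h. The log2 fold change was 1.00 ± 0.30, and the replicate 2 pair alone differed by 2.38. At 3 h all 4 Ang II arrays had Cdt1 well above background, but 3 of 4 in each other group, so that it entered the test only through the group where it was high, and its 3 h call carries that limit. At 6 h Cdt1 had a log2 fold change of 0.50 ± 0.20, with 3 of 4 pairs above 0. Gmnn, the inhibitor of Cdt1, passed at 6 h (0.33 ± 0.14) but not at 3 h (0.33 ± 0.27). Orc1l, the largest subunit of the origin recognition complex, had 8.98, 7.38, 8.83 and 7.83 in Control and 9.11, 8.44, 8.88 and 8.67 in Ang II at 6 h. All 4 pairs were above 0, replicates 1 and 3 by 0.14 and 0.05 only, and the log2 fold change was 0.52 ± 0.18. At 3 h its value was 0.57 ± 0.27 with 2 of 4 pairs above 0, and it did not pass.

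Of the kinase and the helicase activators, Cdc7, Dbf4, Gins2 and Gins3 were called at 6 h and Gins2 at 3 h, where Cdc7 and Gins3 were too dim to test. Cdc7, the catalytic subunit of the kinase that fires origins, had 4.61, 4.31, 5.10 and 4.26 in Control and 5.08, 4.83, 5.19 and 4.75 in Ang II at 6 h. It was higher on every slide and by similar amounts in replicates 1, 2 and 4, with a log2 fold change of 0.39 ± 0.14. Its activator Dbf4 had 0.29 ± 0.11 and also passed, with 3 of 4 pairs above 0. Among the 4 GINS subunits, Gins2 passed at both times. At 3 h it had 7.16, 5.60, 4.16 and 6.00 in Control and 7.51, 7.20, 4.26 and 6.85 in Ang II, a log2 fold change of 0.72 ± 0.20. At 6 h it had 8.13, 6.63, 7.87 and 6.84 in Control and 8.23, 7.66, 8.02 and 7.97 in Ang II, a log2 fold change of 0.60 ± 0.18. The 4 Gins2 pairs were above 0 at each time, and replicates 2 and 4 held the large differences. Gins3 passed at 6 h, where Control had 4.90, 3.65, 4.04 and 4.15 and Ang II 5.03, 3.72, 4.51 and 4.57. Unlike most members it differed most in replicates 3 and 4, by 0.47 and 0.42, and its log2 fold change of 0.27 ± 0.09 was just past the fold limit. Under other ways of processing, the Gins3 call stayed past both limits in 6 of 14, with a lowest log2 fold change of 0.12. Gins1, Gins4 and Cdc45l passed at neither time, and Gins4 had -0.18 ± 0.13 at 3 h and 0.20 ± 0.10 at 6 h.

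The polymerases that begin and extend the strands held the lowest p-values among the members. Pola2, the regulatory subunit of polymerase alpha, had 6.19, 4.77, 2.87 and 4.55 in Control and 6.54, 6.01, 3.39 and 5.44 in Ang II at 3 h. At 6 h it had 6.45, 5.17, 6.86 and 5.58 in Control and 6.80, 6.30, 6.96 and 6.68 in Ang II. All 8 pairs were above 0, and the log2 fold changes were 0.75 ± 0.21 and 0.67 ± 0.19, with adjusted p of 0.324 and 0.110 in limma. Pola1, the catalytic subunit, had 6.62, 5.30, 7.51 and 6.73 in Control and 7.14, 6.66, 7.80 and 7.15 in Ang II at 6 h, a log2 fold change of 0.65 ± 0.22. At 3 h Pola1 had 0.06 ± 0.17. The change of its Ang II x Control value from 3 h to 6 h was 0.64 ± 0.28, with an unadjusted p of 0.0357 and an adjusted p of 0.708 in limma over 32 arrays. Of the primase subunits, Prim2 passed at 3 h (0.41 ± 0.17, 2 of 4 pairs above 0) and Prim1 at neither time, its 6 h value of 0.21 ± 0.08 being under the fold limit although all 4 pairs were above 0.

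Pole, the catalytic subunit of polymerase epsilon on the leading strand, was the member with the lowest p. At 6 h Control had 6.84, 6.07, 7.87 and 6.50 and Ang II 7.58, 6.96, 7.97 and 7.29. The difference was large in replicates 1, 2 and 4 (0.75, 0.89 and 0.78) and 0.10 in replicate 3, for a log2 fold change of 0.63 ± 0.17 and an adjusted p of 0.108 in limma. Replicate 1, where the median over the members was 0.06, thus held a large difference for Pole. At 3 h Pole had 0.33 ± 0.14 and passed with all 4 pairs above 0, replicate 1 by 0.01. Its 3 h call stayed past both limits in 6 of 14 other ways of processing, with a lowest value of 0.13. Pole2, its second subunit, had 0.38 ± 0.22 at 6 h and did not pass. None of the polymerase delta subunits passed at either time, with Pold1 at 0.36 ± 0.17 and 0.29 ± 0.14, Pold3 at 0.26 ± 0.17 and 0.23 ± 0.12, and Pold2 at 0.20 ± 0.13 and -0.09 ± 0.10, at 3 h and 6 h.

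PCNA is the ring that tethers the polymerases to DNA and is widely used as a marker of S phase. Pcna had 12.87, 11.38, 10.69 and 11.32 in Control and 12.63, 11.43, 10.91 and 11.49 in Ang II at 3 h, a log2 fold change of 0.05 ± 0.11 that did not pass. At 6 h it had 12.90, 11.34, 12.41 and 11.45 in Control and 12.86, 12.01, 12.66 and 12.07 in Ang II, a log2 fold change of 0.37 ± 0.13 that did. Replicate 1 was level at 6 h and the other slides were higher. Its change from 3 h to 6 h was not significant in limma (adjusted p = 0.719). Of the clamp loader, Rfc5 (0.51 ± 0.18) and Rfc2 (0.31 ± 0.13) passed at 6 h and Rfc1 at 3 h (0.27 ± 0.12). The 3 Rfc1 probes disagreed at 3 h, with log2 fold changes of 0.97, 0.02 and -0.17, and 1 of them made the call. Rfc3 and Rfc4 passed at neither time. Rpa1, the large subunit of the single-strand binding protein, had 7.66, 6.50, 5.28 and 6.34 in Control and 8.01, 7.89, 5.52 and 7.13 in Ang II at 3 h. All 4 pairs were above 0, with a log2 fold change of 0.69 ± 0.21, and at 6 h it was 0.48 ± 0.17 with 3 of 4 pairs above 0. Rpa2 also passed at both times (0.34 ± 0.16 and 0.37 ± 0.14), and Rpa3 at neither. The genes that finish the lagging strand did not pass. Fen1, the flap nuclease, had 0.31 ± 0.16 and 0.07 ± 0.09, and Rnaseh2a, of the enzyme that removes RNA from DNA, had -0.05 ± 0.10 and 0.08 ± 0.06. Lig1, the ligase, had 0.68 ± 0.44 at 3 h, where the replicate 2 pair alone differed by 2.72, and 0.22 ± 0.12 at 6 h.

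Of the 5 genes of nucleotide synthesis, 1 was called higher at 3 h and 2 at 6 h, with a median log2 fold change of 0.34 and 0.19. Rrm1, the large subunit of ribonucleotide reductase, had 6.87, 5.23, 6.58 and 5.84 in Control and 6.95, 5.96, 6.72 and 6.63 in Ang II at 6 h. All 4 pairs were above 0, and the log2 fold change was 0.43 ± 0.14. At 3 h Rrm1 was dim and uneven, with 5.29, 4.61, 4.38 and 5.16 in Control and 5.80, 5.96, 3.32 and 5.71 in Ang II, and its 0.34 ± 0.32 did not pass. Rrm2, the small subunit, had 12.45, 11.27, 8.81 and 11.41 in Control and 12.44, 12.09, 9.26 and 11.76 in Ang II at 3 h, a log2 fold change of 0.40 ± 0.14 that passed. Its 2 probes gave 0.48 and 0.14, and only the first passed by itself. At 6 h Rrm2 had 0.19 ± 0.08, under the fold limit. Tyms passed at 6 h (0.30 ± 0.13), while Tk1 (0.18 ± 0.08) and Dut (0.13 ± 0.06) did not, although all 4 pairs of both were above 0.

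Among the chromatin genes of S phase, Chaf1a passed at 6 h. It encodes the large subunit of the factor that places histones on new DNA, and it had 11.17, 9.87, 11.13 and 10.05 in Control and 11.32, 10.87, 11.18 and 10.92 in Ang II. The 4 pairs were above 0, replicates 1 and 3 by 0.14 and 0.05, and the log2 fold change was 0.52 ± 0.17. Its partner Chaf1b (0.44 ± 0.21), Uhrf1, which guides maintenance methylation (0.24 ± 0.11), and Slbp, which binds histone mRNA (0.29 ± 0.14), did not pass at 6 h. Ung, which removes uracil from DNA (0.21 ± 0.09), and the fork protection pair Tipin (0.26 ± 0.07) and Timeless (0.36 ± 0.17) did not pass either. Tipin had an unadjusted p of 0.00445 in limma with all 4 pairs above 0, but its fold was just under the limit of 1.2.

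**Figure D3:**
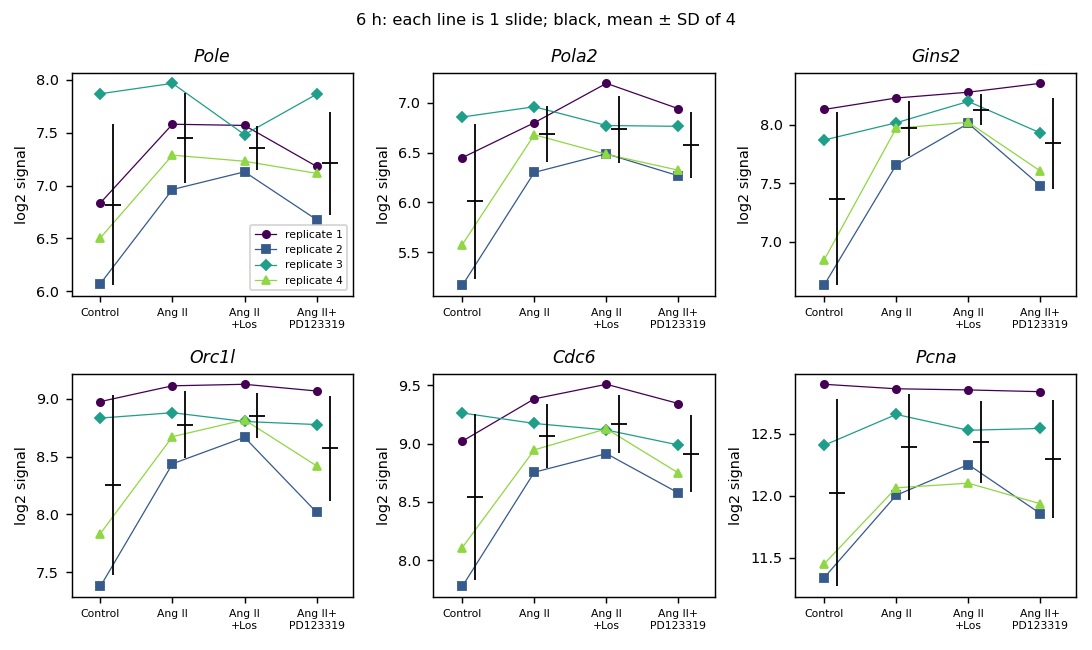
Log2 signal of 6 members in every 6 h sample, with a line for each slide across the 4 groups and the mean ± SD of 4 samples in black. The lines of replicates 2 and 4 start low in Control and are higher in all 3 treated groups, while those of replicates 1 and 3 are mostly flat, and Pole is higher in Ang II in replicate 1 as well.

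The difference between 6 h and 3 h was tested for all genes measured at both times. Each time had its own slides, scans and scanner software settings, so that time and these cannot be told apart. Of 41 members, 3 had an unadjusted p under 0.05 (Gins4, Pola1 and Rfc2, all more positive at 6 h) and 0 an adjusted p under 0.05, and over all 13617 genes the numbers were 931 and 0. That Pcna, Orc1l and Chaf1a passed at 6 h only is therefore not shown to be a difference between the times.

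Other genes of the pathway were counted in Ang II x Control, where 5.03% of all genes were higher at 3 h and 6.61% at 6 h. Of the MCM helicase, the ring that unwinds DNA at the fork, 4 of 6 subunits were higher at 3 h and 4 of 6 at 6 h, with a median log2 fold change of 0.43 and 0.45. Of a list of other replication factors, 5 of 20 were higher at 3 h and 0 lower, and 9 of 22 were higher at 6 h and 1 lower. Among these, Clspn, the fork checkpoint adaptor, had 1.31 ± 0.31 at 6 h, and Donson, a replisome component, 0.64 ± 0.17 and 0.68 ± 0.13 at 3 h and 6 h. Orc4l, another origin recognition subunit, was the 1 that was lower (-0.44 ± 0.19 at 6 h). Other nucleotide synthesis genes gave 2 of 18 higher and 1 lower at 3 h and 1 of 19 higher at 6 h, with medians of 0.11 and 0.01. That list held purine, pyrimidine, folate and deoxynucleotide genes outside the members. E2F and G1/S cyclin genes gave 3 of 14 and 4 of 16 higher, with medians of 0.15 and 0.13, and mitosis genes 5 of 17 and 2 of 18, with medians of 0.15 and 0.15. Neither of the last lists had a gene called lower. The medians of the members lay between those of the MCM genes and of the mitosis genes, and the differences between lists were not tested.

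The second question was whether blocking a receptor before Ang II altered the members. The comparisons with an antagonist share the Ang II samples with Ang II x Control, so that their values are given side by side and not as separate evidence. At 3 h, Losartan (Ang II+Los x Ang II) gave 1 of 41 members higher and 1 lower, against 5.00% of all genes called higher and 5.16% lower. Pola1 had 6.30, 5.69, 3.85 and 5.61 in Ang II and 6.00, 4.85, 3.55 and 5.19 in Ang II+Los, lower on every slide, with a log2 fold change of -0.47 ± 0.17 and an adjusted p of 0.421 in limma. Pola1 had been at 0.06 in Ang II x Control at that time. Chaf1b had 10.999, 10.202, 9.502 and 10.427 in Ang II and 11.413, 11.457, 9.659 and 10.704 in Ang II+Los, higher on every slide, with 0.53 ± 0.23 and an adjusted p of 0.421. In this comparison the members spread widely around a median of 0.10, from Slbp at -0.70 ± 0.35 to Chaf1b, and 25 of 41 lay above 0. The 4 replicates gave medians of 0.13, 0.30, 0.01 and -0.09. The replicate 2 pair held the widest values, from -2.34 for Slbp and -1.53 for Dut to 1.26 for Chaf1b and 1.495 for Gmnn. On that slide the log2 75th percentile before normalization was 9.52 on the Ang II array and 8.31 on the Ang II+Los array, and the part of brightness in these values was not tested. Without replicate 2, 0 members were called, against 1.64% of all genes in either direction.

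At 6 h, 0 of 44 members were called in Ang II+Los x Ang II, against 0.912% of all genes in either direction, with 342 genes at an unadjusted p under 0.05 in limma. The median was 0.04, and the members lay between -0.10 (Pole) and 0.16 (Gins2), with 31 of 44 above 0 (49.4% of all genes were). On all 4 slides 10 of 44 were above 0, against 5.75% of all genes, and 0 were below 0, against 7.34%. Control was also set against the antagonist groups, a description without a test that was added after the other values were seen. These differences use the same Control arrays as Ang II x Control, so that they are not separate evidence. The share of all genes above 0 was not counted for them. The median of Ang II+Los minus Control was 0.35 at 3 h and 0.35 at 6 h, with 35 of 41 and 43 of 44 members above 0. By replicate it was 0.20, 0.58, 0.10 and 0.36 at 3 h and 0.08, 0.67, -0.01 and 0.63 at 6 h. Replicates 2 and 4 were the higher ones, on the shared Control arrays.

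In Ang II+PD123319 x Ang II, 0 of 41 members were called at 3 h, against 2.87% of all genes, and 0 of 44 at 6 h, against 3.78%. At an unadjusted p under 0.05 in limma there were 430 and 1050 genes. At 3 h the median of the members was -0.03. At 6 h it was -0.10, 40 of 44 members lay below 0 (50.8% of all genes did), and 14 of 44 were below 0 on all 4 slides, against 11.3% of all genes. These 14 were Ung, Pole, Tipin, Dut, Rfc3, Orc1l, Cdt1, Cdc6, Pcna, Rfc2, Chaf1a, Rpa1, Prim2 and Gins1. The differences were small next to those of Ang II x Control. A median below 0 at 6 h was not particular to the members. It was -0.15 over the MCM genes and -0.12 over the other replication factors. The E2F and G1/S cyclin genes had -0.13 and the other nucleotide synthesis genes -0.10, while the mitosis genes had 0.02. Cdt1 had 7.30, 6.74, 7.04 and 6.81 in Ang II and 7.17, 6.43, 6.90 and 6.52 in Ang II+PD123319 at 6 h, a log2 fold change of -0.22 ± 0.20. Pole had 7.58, 6.96, 7.97 and 7.29 in Ang II and 7.18, 6.68, 7.86 and 7.12 in Ang II+PD123319, -0.24 ± 0.17. Orc1l had -0.20 ± 0.18 and Cdc6 -0.15 ± 0.17, and Ung, at -0.26 ± 0.09, was the member with the lowest unadjusted p (0.0148, adjusted p = 0.651 in limma). These standard errors come from the fit across 16 arrays, which all 4 groups share. With only the 8 arrays of the comparison, 5 members had an unadjusted p under 0.05 in limma, all lower (Ung, Cdt1, Pole, Cdc6 and Orc1l). None was below an adjusted p of 0.432. The share of all genes at that unadjusted p in this fit is not given here, so the count stands without a background. None of the 5 was past the fold limit, while 4.01% of all genes passed both limits in this fit. The replicates gave medians of 0.00, -0.11, -0.10 and -0.15. Ang II+PD123319 minus Control had a median of 0.24 at 3 h and 0.23 at 6 h, with 37 of 41 and 41 of 44 members above 0. By replicate it was -0.13, 0.42, 0.09 and 0.37 at 3 h and 0.04, 0.51, -0.09 and 0.45 at 6 h, so that replicate 1 at 3 h and replicate 3 at 6 h lay below 0.

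**Figure D4:**
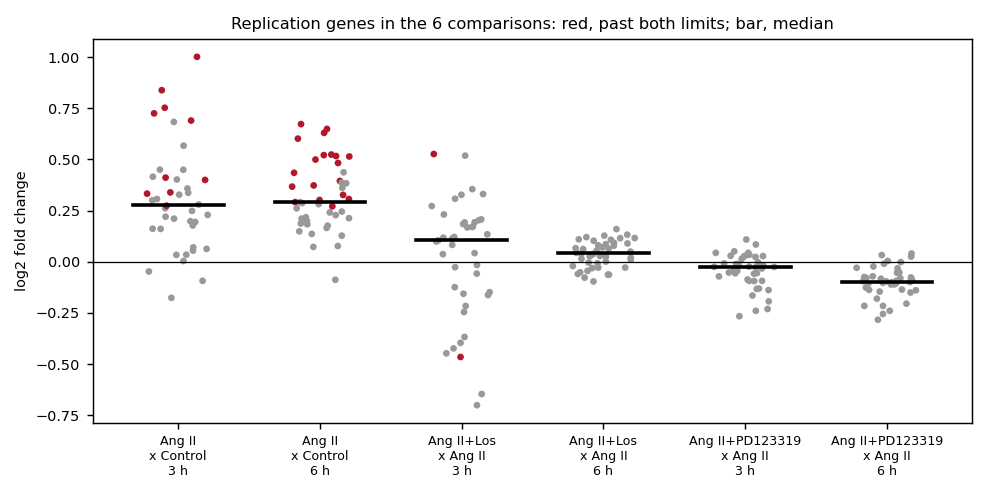
Log2 fold change of every tested member in the 6 comparisons, with red points past both limits and a black bar at the median. The Ang II x Control points lie mostly above 0 at both times, the 3 h points of Losartan against Ang II alone spread to both sides, and the 6 h points of PD123319 lie mostly just below 0.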

How the data were processed

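RNA of 32 C6 samples was hybridized to one-colour (Cy3) arrays. Per the file headers, the scanner software (Agilent Feature Extraction 9.5.3.1) gave each spot a background-subtracted intensity, with different settings at 3 h and 6 h, so that a spot well above background is defined differently at the 2 times. Of the deposited log2 values 38.2% were blank, and the 561803 compared equalled the log2 of these intensities within 1e-06, without normalization between arrays. They were an alternative here. The deposited flags for background and outliers carry no unit.

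From the scanner files, outlier spots were dropped, dim 3 h spots were set to the error of their signal, and a probe was kept where each of the 4 arrays of some group had it well above background, with at most 2 gaps. The 16 arrays of a time were normalized by cyclic loess (span 0.7, 3 iterations), probes were averaged per gene, and limma 3.58.1 (R 4.3.3) was fitted with the slide as a block. The limits were an unadjusted p under 0.05 and a fold above 1.2 or below 0.8, with Benjamini-Hochberg adjustment over all genes. Arrays of a time with the same replicate number lay on one slide, and deviations from the group means correlated between arrays of one slide by 0.149 to 0.917 at 3 h and by 0.554 to 0.827 at 6 h, so the slide pairs the samples. Values in every sample were given for up to 12 members of lowest p past both limits with 4 pairs in one direction in Ang II x Control, up to 3 in each antagonist comparison, and Pcna, Cdc6 and Rrm2. Other members were given by value or count. The members and lists were chosen with earlier results of these data known. Sequences came from the scanner files (probes, rn4) and from RefSeq (promoters, GRCr8). The fits were tested on simulated data. Alternatives covered the block, the methods' paired t-test, scaling, background, filters, probes and replicates. A search of member proteins for PCNA-binding letters was not run here. The number of arrays limits the precision.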

Additional observations from a re-analysis of the deposited data

Results flagged for a closer look

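In 7 of 120 groups of 4 samples, 1 sample stood apart from the other 3 by Dixon's test, and chance gives about 6. All 7 were arrays of replicate 3 at 3 h, where the members were low in every group. Cdc6 had a log2 signal of 5.84 there in Ang II, 5.66 in Ang II+Los and 5.39 in Ang II+PD123319. Orc1l had 5.79, 6.03 and 5.80 in the same groups. Rrm1 had 3.32 in Ang II, the array that gave its pair of -1.06.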

How the results depend on the processing

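The 22 results for named members gave 320 values under the alternatives, of which 236 kept their direction and stayed past both limits, 84 kept their direction only and 0 reversed. Without the replicate block, 20 of 22 were no longer past the limits, and the number of members past both limits in Ang II x Control was 0 at 3 h and 2 at 6 h, and 0 in the 3 h comparison of Ang II+Los with Ang II. The methods' paired t-test gave 2, 3 and 1 for these comparisons. Of all genes, 2.49%, 3.37% and 2.59% were called without the block, and 4.88%, 4.42% and 0.983% with the paired t-test. At 3 h, Ang II x Control gave 6 members with 75th percentile scaling, 5 with the strict filter (34 tested) and 6 with the deposited values (33 tested), where fewer genes were tested in the last 2. These 3 h settings called 11.9%, 10.7% and 10.9% of all genes tested. At 6 h Ang II x Control gave 12 members with only the 8 arrays of the comparison, against 9.90% of all genes. Losartan against Ang II alone gave 5 with normexp background and 1 with the strict filter at 3 h, and 1 with no filter at 6 h. The shares of all genes there were 7.33%, 10.0% and 1.81%. Within scan 1 the 3 h median for PD123319 against Ang II alone was -0.080. Beyond the filters, the cause of these changes was not tested. Leaving out each replicate gave 4 to 13 members for Ang II x Control at 3 h, 5 to 27 at 6 h, 0 to 5 for Losartan against Ang II alone at 3 h and 0 to 1 for PD123319 at 6 h. The shares of all genes called in these fits moved as well. They ran from 5.4% to 12.7%, 7.4% to 15.3%, 1.64% to 13.8% and 2.14% to 6.41%, in the same order. The median over the members in Ang II x Control ran from 0.21 to 0.37 at 3 h and from 0.20 to 0.39 at 6 h. Without replicate 3, 6 of 44 members had an adjusted p under 0.05 at 6 h in limma (Cdc6, Cdc7, Cdt1, Pola2, Pole and Rpa1). Of all 16448 genes, 334 did so in that fit. In Ang II x Control at 6 h, 55 genes reached this with the strict filter, 47 with the deposited values and 1 with no filter. These genes included 0 members. Over scaling, quantile normalization, normexp background and each replicate left out, the medians of Ang II+Los minus Control (added after seeing the data) ran from 0.21 to 0.39 at 3 h and from 0.22 to 0.43 at 6 h, and those of Ang II+PD123319 minus Control from 0.16 to 0.31 and from 0.14 to 0.32. At 3 h Gins3, Cdc7, Pole2 and Dnmt1 were too dim to test, and Cdt1, Gins2, Pola1, Pola2, Pole, Rrm1 and Uhrf1 had 3 of 4 arrays well above background in some groups and were left out by the strict filter.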
